A study of Homo sapiens with 6 samples.

Results

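Transfer RNA (tRNA) genes that lie outside the large human tRNA gene clusters were examined in small RNA libraries of HEK293T, a human embryonic kidney cell line. The count table held 534 windows of the tRNA class among 53603 windows of 400 bp, each running from 150 bp before to 250 bp after a start site. Windows inside 10 intervals that hold the large clusters, on chromosomes 1, 5, 6, 7, 14, 16 and 17 of GRCh38, were left out by position, and no tRNA window lay on the mitochondrial chromosome. This left 201 dispersed windows on 21 chromosomes, against 333 windows in the clusters. No read count was used to choose them. The 6 libraries came from cells collected 48 h after they received 150 nM of siRNA, which was either a control (3 libraries) or directed against La, the product of the gene SSB (3 libraries). The series describes the 3 libraries of an arm as biological replicates, and whether they came from separate cultures is not stated further, so p-values measure the spread between these libraries. Small RNA was treated with a phosphatase and then with polynucleotide kinase before library preparation.

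tRNA genes are transcribed by RNA polymerase III from promoters that lie within the gene, the A box and the B box, and transcription ends in a run of T after the gene. The transcript therefore ends in a run of U, to which La binds. La is known to protect the 3′ end of precursor tRNA from exonucleases and to assist its folding until the trailer is cut off, after which CCA is added and the mature tRNA is exported to the cytoplasm.

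The label tRNA covered several kinds of sequence. At the start of 117 of the 201 windows lay a RefSeq tRNA gene (115 distinct genes of 47 anticodons). In 36 windows lay nuclear pseudogenes of mitochondrial genes, here called mitochondrial-like windows. Another 6 held a RefSeq tRNA pseudogene and 42 held no RefSeq tRNA gene at their start and no such pseudogene. This division was made from the annotation after values had been seen, so it is used only to describe. In 9 groups, 18 windows had counts identical to those of another member, and 6 windows reached into a neighbouring RefSeq tRNA gene. How reads with several positions were assigned is not given in the sources used here, so counts of near-identical gene copies are uncertain.

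For 8 of the genes, the gene and what follows it could be read from RefSeq promoters (GRCh38.p14) or GENCODE 29 transcripts. They are shown because the T run encodes the U run to which La binds. Each is written 5′ to 3′ on the gene's own strand, up to the end of its first run of at least 4 T. The 2 stretches in capitals are the match to the B box motif GTTCNANNC and that T run.
TRR-TCG1-1: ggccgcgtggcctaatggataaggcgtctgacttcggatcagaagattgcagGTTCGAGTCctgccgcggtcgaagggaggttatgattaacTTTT
TRF-GAA1-5: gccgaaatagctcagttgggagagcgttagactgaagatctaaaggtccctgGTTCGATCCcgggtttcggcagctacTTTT
TRR-ACG2-1: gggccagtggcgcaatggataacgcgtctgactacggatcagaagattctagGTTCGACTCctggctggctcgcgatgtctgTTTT
TRH-GTG1-8: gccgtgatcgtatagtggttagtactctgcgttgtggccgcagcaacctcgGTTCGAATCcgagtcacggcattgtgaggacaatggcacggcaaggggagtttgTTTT
TRR-TCT1-1: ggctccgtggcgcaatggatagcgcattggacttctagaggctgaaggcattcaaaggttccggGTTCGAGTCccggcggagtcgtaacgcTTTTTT
TRH-GTG1-7: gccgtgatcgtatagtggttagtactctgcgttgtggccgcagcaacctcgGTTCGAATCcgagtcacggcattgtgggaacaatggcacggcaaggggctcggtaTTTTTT
TRG-GCC2-4: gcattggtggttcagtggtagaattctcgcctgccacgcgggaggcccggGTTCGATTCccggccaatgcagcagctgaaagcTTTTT
TRG-CCC2-2: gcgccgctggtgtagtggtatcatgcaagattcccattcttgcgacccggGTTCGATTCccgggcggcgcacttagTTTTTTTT

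In these names, the letter after TR gives the amino acid, the next 3 letters give the anticodon, genes that share the number after the anticodon have the same mature sequence, and the last number counts the copies. TRH-GTG1-7 and TRH-GTG1-8 are thus copies of 1 histidine tRNA, and in the printed sequences they part only after the gene. The first run had 4 T in TRR-TCG1-1, TRF-GAA1-5, TRR-ACG2-1 and TRH-GTG1-8. It had 5 T in TRG-GCC2-4, 6 in TRR-TCT1-1, at least 6 in TRH-GTG1-7, where the sequence read ended, and 8 in TRG-CCC2-2. Between gene and T run lay from 5 bases in TRF-GAA1-5 to 34 in TRH-GTG1-7. TRR-TCT1-1 is the longest of the 8, at 85 bases, and its gene holds an intron. As a background, a B box match on either strand was found in 2.59% of 35116 promoter ends of 113 bases (1.27% on the given strand). A run of at least 4 T was found in the last 40 bases of 9.35% of them. For TRR-ACG2-1 the window did not give the strand, so both strands were read and the one with a B box match was kept. Its match was thus fixed by the search and cannot be set beside this background.

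The libraries held 3066299 to 4105806 counts in windows. Of the 201 dispersed windows, 159 had enough counts to be tested, 26 had reads but too few (at most 76 counts over the 6 libraries), and 16 had no read. Of the 117 windows at RefSeq tRNA genes, 115 were tested. SSB itself could not be checked, since its start-site windows hold promoter small RNA and not mRNA. The window PCG_40419 at an SSB start had 4, 3 and 3 counts in controls and 1, 0 and 0 after La knockdown, and its other start window, PCG_12982, had 0, 0 and 1 against 0, 2 and 0. Of genes known to be expressed in HEK293T, VIM had at most 10 counts in a start window in any library, NEFM at most 4 and PAX2 none, and no such window was tested. These windows do not measure mRNA either, so the labelled cell line could not be checked from them.

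The dispersed windows held a smaller share of all counts in every La knockdown library than in any control library. The share was 5.55%, 6.03% and 5.93% in control libraries 1 to 3 and 4.19%, 4.05% and 5.19% in La knockdown libraries 1 to 3. The means were 5.83% ± 0.256 and 4.48% ± 0.626 (SD, n = 3), a difference of -1.36 percentage points (exact permutation test, two-sided p = 0.1, the smallest that 3 against 3 allows, 0.15 after Benjamini-Hochberg adjustment over 3 tests). In bulk libraries such a share cannot tell fewer molecules of these RNAs from more of the others. The tRNA clusters moved with them, from 9.79% ± 0.439 to 7.05% ± 0.965 (SD, n = 3, exact permutation p = 0.1, adjusted 0.15).

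Whether dispersed and clustered windows differed was read from the log2 ratio of their summed counts within each library, which no scaling between libraries can change. It was -0.85, -0.62 and -0.77 in controls and -0.73, -0.60 and -0.64 after La knockdown. The arms overlapped. The difference of 0.091 was within the spread between replicates (exact permutation test, two-sided p = 0.3, adjusted 0.3). Identical gene copies may lie in both sets, and how reads with several positions were assigned is not given. Reads shared between the sets would draw the ratio toward no difference, so this test cannot show that the sets were alike. Within the dispersed share, windows at RefSeq tRNA genes went from 4.60% ± 0.392 to 3.56% ± 0.511 and mitochondrial-like windows from 1.03% ± 0.351 to 0.729% ± 0.200 (SD, n = 3). The arms did not overlap for the tRNA genes and did overlap for the mitochondrial-like windows.

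**Figure D1:**
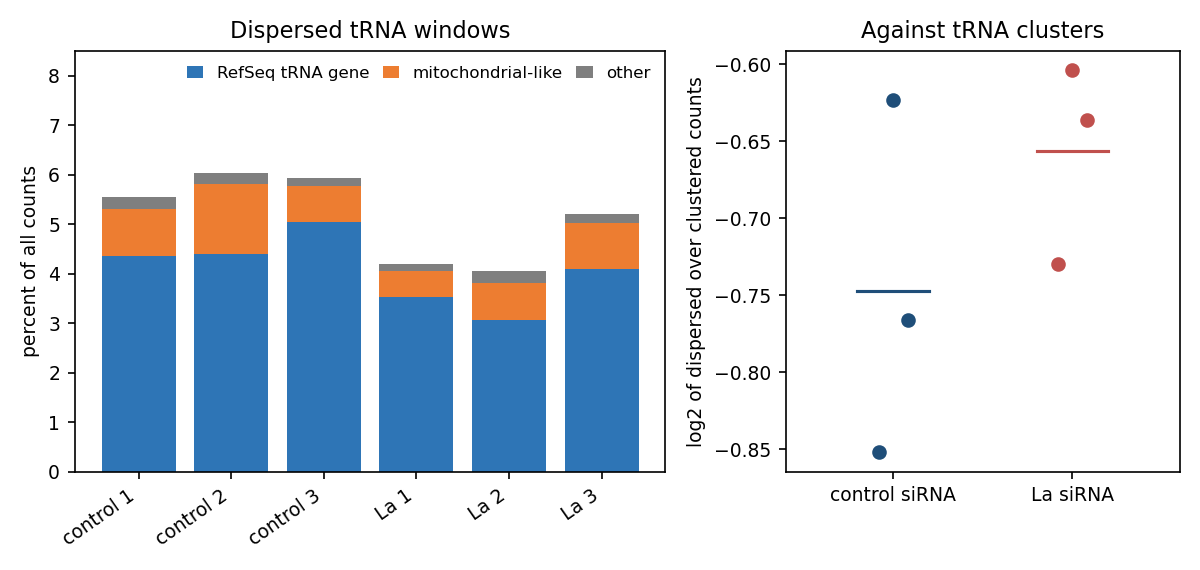
Left, percent of all counts of each library (vertical axis, from 0) in dispersed tRNA windows, stacked by what lies in the window; the 3 control bars reach 5.55% to 6.03% and the 3 La bars 4.05% to 5.19%. Right, log2 of dispersed over clustered tRNA counts per library (points) with the mean of each arm (line); the vertical axis does not start at 0 and the arms overlap.

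In the edgeR quasi-likelihood fit of all 1064 windows with enough counts, 8 of the 159 tested dispersed windows were lower after La knockdown at an adjusted p under 0.05 and none was higher. That is 5.03% of those tested, beside 4.79% of all windows tested that were lower and 0.658% that were higher. The share lower was near that of all windows, but these include the tRNA windows themselves. Of the 618 tested windows of other classes, 20 were lower (3.24%) and 7 higher. DESeq2 called 13 dispersed windows lower and 1 higher (8.18% and 0.629%, against 7.15% and 2.16% of all windows). In windows of other classes it called 23 lower and 22 higher. Among the clustered tRNA windows, 23 of 287 were lower (8.01%). At an unadjusted p under 0.05, 29 dispersed windows were lower and 2 higher (18.2% and 1.26%, against 14.2% and 9.68% of all windows). The CPM (counts scaled to library size, with TMM factors) of the arms did not overlap in 41 windows in which La knockdown was lower and in 6 in which it was higher (25.8% and 3.77%, against 17.9% and 14.1% of all windows). In windows of other classes, 5.50% were lower and 16.2% higher at that unadjusted p. Their arms did not overlap in 5.83% with La knockdown lower and in 22.2% with it higher.

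The fitted log2 fold change of La knockdown against control was below 0 in 122 of the 159 windows. Its median was -0.32 in the dispersed windows, -0.48 in the 287 clustered windows, -0.05 in all 1064 and 0.28 in the 618 tested windows of other classes. Upper quartile scaling moved the median of all windows to 0.26 and that of the dispersed windows to -0.0075. Relative to the median of all windows, the dispersed median was lower by 0.26 as fitted, and the difference lay between -0.60 and -0.18 under every alternative of scaling, filter, tool, model and libraries that was run. At RefSeq tRNA genes the medians were close, -0.43 in the 115 dispersed and -0.43 in the 257 clustered windows. Of these, 6 and 17 were lower (5.2% and 6.6%, beside 4.79% of all windows). In the authors' deposited table, 14 dispersed windows were lower at an adjusted p under 0.05 and none was higher. All 14 were among the 159 tested here, a share of 8.81%, where that table's lower windows made up 7.52% of the 1064 tested here. Over all 53603 windows, most of them without a read, they made up 0.149%. These 14 held all 8 windows called here, and 12 of them were at RefSeq tRNA genes. Those not called here were TRV-TAC3-1, TRK-TTT5-1, TRS-GCT3-1, TRS-GCT4-2, TRR-TCG1-1 and TRL-TAG3-1.

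**Figure D2:**
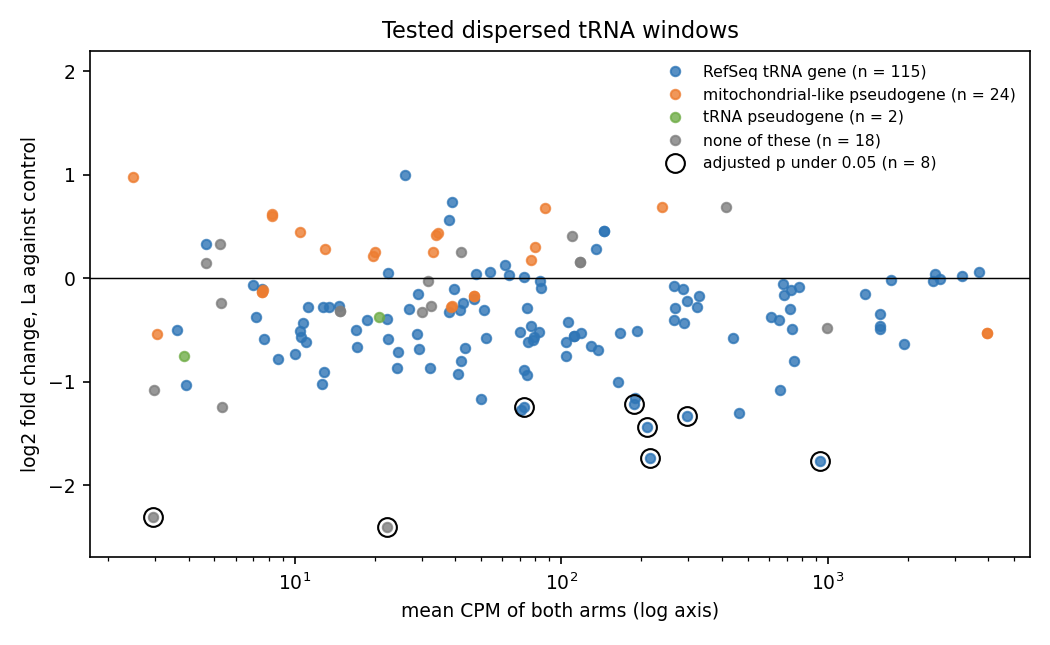
Fitted log2 fold change (vertical axis) against mean CPM of both arms (horizontal log axis) for the 159 tested dispersed windows, coloured by what lies in the window; rings mark the 8 windows with an adjusted p under 0.05. The ringed points lie between -2.40 and -1.21; most blue points, the RefSeq tRNA genes, lie below 0.

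Among the windows that were lower, 3 held lysine tRNA genes with the anticodon TTT, which reads AAA and AAG codons. TRK-TTT3-4 (chromosome 11, 59560335 to 59560407, minus strand) had 1407, 1092 and 1181 counts in controls and 223, 240 and 467 after La knockdown. All 3 La knockdown libraries lay far below the controls, and library 3 was the highest of them. The log2 fold change was -1.74 (SE 0.31, edgeR adjusted p = 0.0148), from 332 ± 31.6 to 99.3 ± 41.7 CPM (SD, n = 3).

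TRK-TTT2-1 (chromosome 11, 122559947 to 122560019, plus strand) had 1120, 964 and 1326 control counts and 256, 284 and 519 La knockdown counts. TRK-TTT3-2 (chromosome 1, 204507030 to 204507102, minus strand) had 455, 342 and 331 against 105, 128 and 171. In both genes the arms were apart and La knockdown library 3 was again the closest to the controls. Their log2 fold changes were -1.44 (SE 0.30) and -1.24 (SE 0.26), with edgeR adjusted p = 0.0223 and 0.0247.

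The remaining called tRNA genes carry arginine, tyrosine and proline. TRR-CCT2-1, an arginine tRNA gene on the strand opposite to KCTD2 (chromosome 17, 75034431 to 75034503, minus strand), had the most reads of the called windows. It had 5128, 4743 and 6173 counts in controls and 1052, 1202 and 1729 after La knockdown (log2 fold change -1.77, SE 0.25, edgeR adjusted p = 0.0102). The tyrosine gene TRY-GTA5-1 (chromosome 8, 66113367 to 66113459, minus strand), whose precursor holds an intron, had 1881, 1285 and 1559 against 483, 358 and 720. The fitted log2 fold change was -1.33 (SE 0.30, edgeR adjusted p = 0.0328). The proline gene TRP-TGG2-1 (chromosome 11, 76235825 to 76235896, minus strand) had 1164, 841 and 888 against 304, 289 and 454 (log2 fold change -1.21, SE 0.27, edgeR adjusted p = 0.0304). In all 3 genes every La knockdown library was below every control library.

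The last 2 called windows held no RefSeq tRNA gene at their start. tRNA_51308 (chromosome 11, 68459970 to 68460369) had 172, 125 and 116 control counts and 13, 17 and 36 La knockdown counts (log2 fold change -2.40, SE 0.39, edgeR adjusted p = 0.0129). tRNA_53370 (chromosome 6, 57813313 to 57813712) had the fewest reads of the called windows, with 31, 11 and 13 against 4, 3 and 2 counts (log2 fold change -2.31, SE 0.57, edgeR adjusted p = 0.0408). At these counts the size of its change was poorly determined, and the call was lost in 5 of the 6 fits that left out a library.

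**Figure D3:**
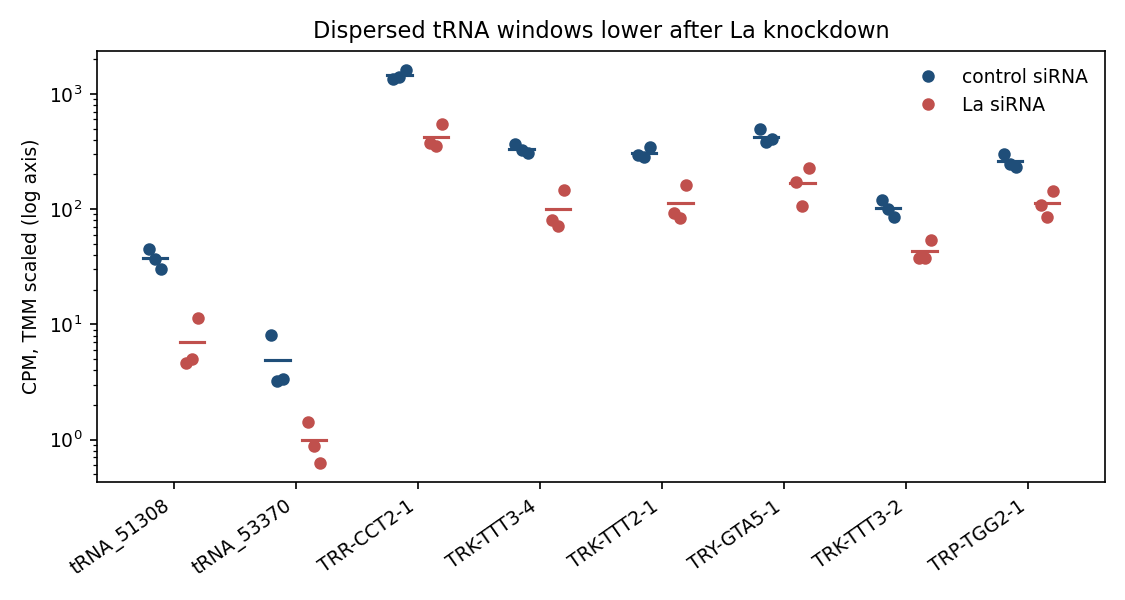
CPM after TMM scaling (vertical log axis) of the 8 dispersed windows that were lower after La knockdown, with 1 point per library and the mean of each arm as a line. In each window the 3 La points lie below the 3 control points, with tRNA_53370 the lowest in level and TRR-CCT2-1 the highest.

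Without La knockdown library 1, none of the 8 windows passed (edgeR adjusted p from 0.121 to 0.192), although each log2 fold change stayed below -1. Without La knockdown library 2, 5 dispersed windows were called, and without La knockdown library 3 there were 15. Leaving out control library 1 gave 4, control library 2 gave 3 and control library 3 gave 10. tRNA_51308, TRR-CCT2-1 and TRK-TTT3-4 kept their call in each of the 5 fits that kept La knockdown library 1. How many of all windows were called in these fits is not given here. A change in calls particular to the dispersed windows thus cannot be read from these counts.

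**Figure D4:**
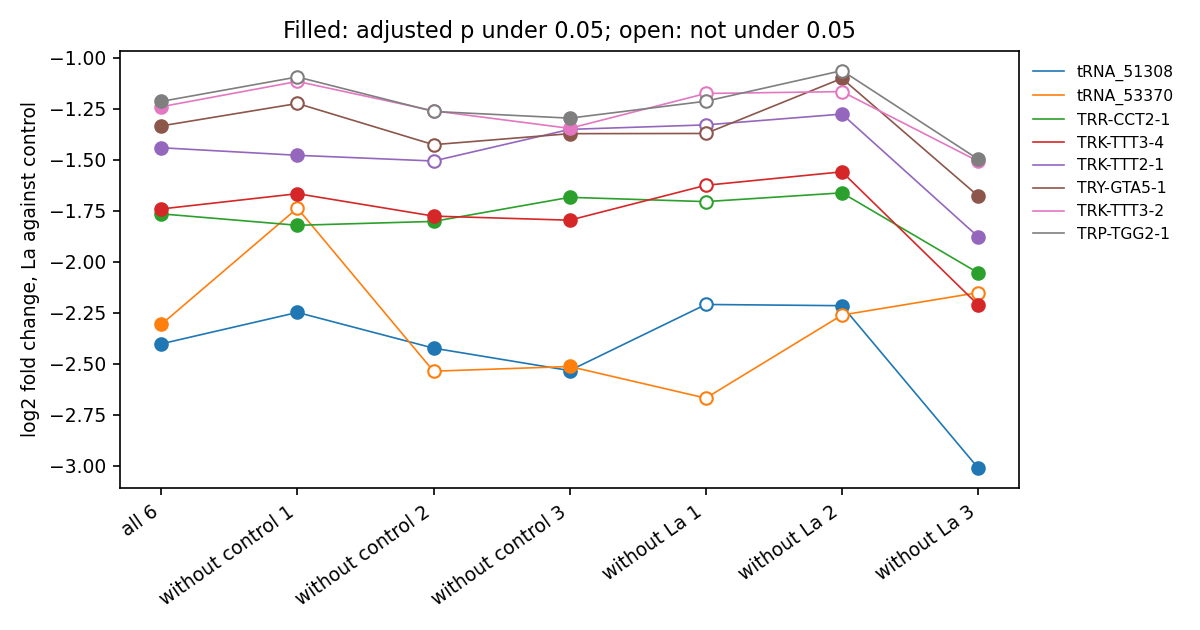
Log2 fold change (vertical axis) of the 8 called windows in the fit of all 6 libraries and in the 6 fits that left out 1 library (horizontal axis); lines join the values of a window, and filled points have an adjusted p under 0.05. All points lie below -1, and all are open without La knockdown library 1.

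The lysine TTT genes had the lowest median of the anticodons with at least 5 tested dispersed windows. The others at that cutoff were cysteine GCA, phenylalanine GAA and glycine GCC. Lower values were found in leucine TAG (-1.27) and proline TGG (-1.215), with 1 tested window each, and in serine GCT (median -1.23, 2 windows). All 6 tested of the 7 dispersed lysine TTT windows had a fitted log2 fold change below 0, with a median of -1.20, and 3 were lower. The clustered lysine TTT windows had a median of -1.21, with 4 of 6 lower. Of all windows tested 4.79% were lower, and of the clustered tRNA windows 8.01%. The median of the dispersed 6 stayed between -1.54 and -0.88 over the scalings, DESeq2 and the fits that left out a library. The other dispersed members ranged from TRK-TTT5-1, at -1.17 (edgeR adjusted p = 0.0568), to TRK-TTT1-1, at -0.28. The 2 dispersed windows with the other lysine anticodon, CTT, were at -0.42 and -0.31.

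Copies with the same mature sequence did not all have the same values. TRK-TTT3-1 and TRK-TTT3-2 lie 476 bp apart between window starts on chromosome 1, and TRK-TTT3-4 lies on chromosome 11. TRK-TTT3-1 had 2248, 1629 and 1982 control counts and 1142, 733 and 1388 La knockdown counts (log2 fold change -0.57, SE 0.29, edgeR adjusted p = 0.241). The count of TRK-TTT3-4 over that of TRK-TTT3-1 was 0.626, 0.670 and 0.596 in controls and 0.195, 0.327 and 0.337 after La knockdown. For TRK-TTT3-2 over TRK-TTT3-1 it was 0.202, 0.210 and 0.167 against 0.0919, 0.175 and 0.123. The first ratio was lower in every La knockdown library, while the second overlapped. These pairs were chosen after their values were seen and were not tested.

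Over the 19 families with at least 2 tested dispersed copies, the log2 fold changes of a family's copies spread over 0.042 in TRD-GTC2 to 2.07 in TRY-GTA5, and over less than 0.2 in 6 of the 19. The 4 copies of the phenylalanine gene TRF-GAA1 ran from -0.80 to 0.06, with totals of 208 to 2168 counts, and those of the asparagine gene TRN-GTT2 from -0.52 to 0.13. The highest values of these families were in TRF-GAA1-6 and TRN-GTT2-6, whose windows overlap on chromosome 19 and may share reads. The other TRF-GAA1 copies lay between -0.80 and -0.74. The higher TRY-GTA5 copy, TRY-GTA5-2, also has a window that overlaps that of another tRNA gene, TRA-AGC8-2. The TRD-GTC2, TRH-GTG1 and TRG-GCC2 families are the 3 with more than 2 copies and a spread under 0.2. Copies within each also had similar totals, 51160 to 65046, 5862 to 6771 and 13825 to 15989 counts. Whether identical copies shared reads, which would bring their values together, was not tested. The aspartate genes TRD-GTC2-8, TRD-GTC2-9 and TRD-GTC2-10, on chromosome 12, were among the windows with the most reads, and TRD-GTC2-8 had 11570, 10241 and 13342 control counts and 10554, 9528 and 9811 La knockdown counts. Their log2 fold changes were 0.03, -0.0042 and 0.04, each with an SE of 0.21 and with overlapping arms. The 4 histidine genes of TRH-GTG1 lay between -0.28 and -0.10 and the 3 glycine genes of TRG-GCC2 between -0.12 and -0.06. Under upper quartile scaling the medians of these 3 families were above 0.

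The 8 genes with printed sequence can be set beside their T runs. The log2 fold change was -1.01 in TRR-TCG1-1, -0.75 in TRF-GAA1-5, -0.69 in TRR-ACG2-1 and -0.28 in TRH-GTG1-8, the 4 genes with a first run of 4 T. It was -0.15 in TRR-TCT1-1, -0.10 in TRH-GTG1-7, -0.06 in TRG-GCC2-4 and 0.45 in TRG-CCC2-2, the 4 with a longer run. None of the 8 passed the edgeR test made here (adjusted p from 0.121 to 0.868). In the authors' deposited edgeR comparison, TRR-TCG1-1 was just under the threshold (adjusted p = 0.0495) and no other of the 8 passed. That comparison had 7.52% of the 1064 windows tested here as lower. In each of the first 4 genes every La knockdown library was below every control library in CPM, whereas the arms overlapped in 3 of the other 4 and La knockdown was higher in TRG-CCC2-2. Over all windows tested, the arms did not overlap in 17.9% with La knockdown lower and in 14.1% with it higher. At all tested dispersed RefSeq tRNA genes these shares were 32.2% and 4.35%.

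Counts show how close some of these are. TRR-TCG1-1 (chromosome 15, 89335073 to 89335145) had 1073, 745 and 600 control counts and 308, 220 and 479 La knockdown counts. TRG-CCC2-2 (chromosome 16, 636736 to 636806), which 2 windows with identical counts cover, had 502, 400 and 451 against 492, 518 and 547. TRH-GTG1-8 and TRH-GTG1-7 are 1807 bp apart between window starts and had 1284, 1085 and 1556 against 784, 1048 and 905, and 1017, 915 and 1350 against 772, 970 and 838. The last 2 genes differ by less than the SE of either (0.23 each). The division at 4 T was made with the values known and was not tested. The 2 sets of log2 fold changes stayed apart in 14 of 15 alternatives and overlapped without La knockdown library 3. The 8 genes were those with a sequence at hand and share the same libraries.

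Serine genes had values on both sides of 0. TRS-GCT3-1 had 3409, 2039 and 1911 control counts and 758, 528 and 1203 La knockdown counts (log2 fold change -1.30, SE 0.35, edgeR adjusted p = 0.0605). TRS-GCT4-2 was at -1.16 with overlapping arms. TRS-TGA1-1, among the 8 windows with the most reads, had 8838, 7833 and 9454 against 3947, 5472 and 4853 and was at -0.63 (SE 0.20, edgeR adjusted p = 0.0989). TRS-AGA2-5 and TRS-CGA4-1 were at 0.28 and 0.33, also with overlapping arms. None of the 5 serine windows passed the edgeR test, 3 were lower at an unadjusted p under 0.05, and DESeq2 called 1, TRS-GCT3-1. Of all windows, 14.2% were lower at that unadjusted p and 7.15% in DESeq2. In the authors' deposited comparison, TRS-GCT3-1 and TRS-GCT4-2 were lower at an adjusted p under 0.05. There, 7.52% of the 1064 windows tested here were lower.

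All 11 dispersed cysteine GCA windows had a fitted log2 fold change below 0, from -1.03 to -0.28 with a median of -0.43. None passed the test in edgeR or DESeq2, and 2 were lower at an unadjusted p under 0.05 in edgeR (18.2%, beside 14.2% of all windows). The 5 phenylalanine GAA windows had a median of -0.75 and ran from -0.92 in TRF-GAA2-1 to 0.06 in TRF-GAA1-6. The 4 valine TAC windows had a median of -0.76, with the lowest value in TRV-TAC3-1 at -1.08 (edgeR adjusted p = 0.0578), where 3697, 2573 and 3779 control counts stood against 1364, 926 and 1644. The 12 arginine windows all had values below 0, from -1.77 in TRR-CCT2-1 to -0.10 in TRR-ACG1-3. The medians of these 4 groups stayed below 0 under each scaling and in each fit that left out a library.

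Across the 27 anticodons with at least 2 tested windows in each set, the dispersed and clustered medians had a Pearson r of 0.467 and a Spearman rho of 0.454. This is across anticodons, which share the libraries and, between identical copies, possibly reads, so no p is given. Both medians were below 0 in 23 of the 27, and the dispersed median was the higher in 14.

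**Figure D5:**
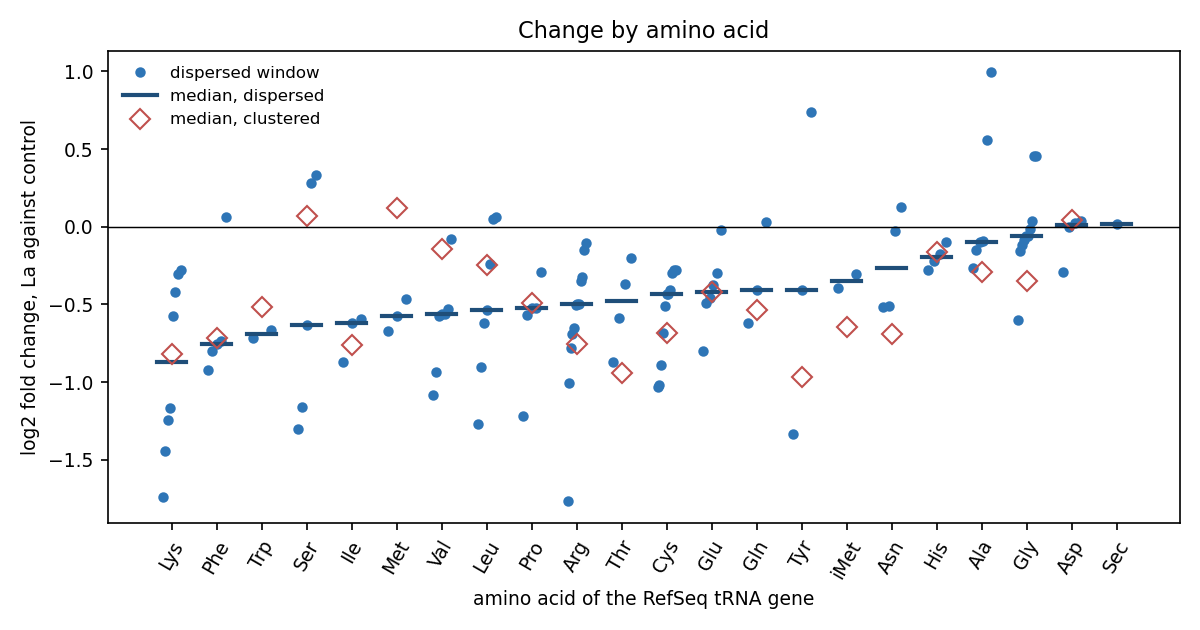
Fitted log2 fold change (vertical axis) of dispersed windows at RefSeq tRNA genes by amino acid (horizontal axis, ordered by the dispersed median; iMet, initiator methionine; Sec, selenocysteine). Points are windows, bars are dispersed medians and open diamonds are the medians of clustered windows; lysine is lowest at -0.87 and aspartate and selenocysteine lie near 0.

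Tyrosine and alanine genes lie side by side at 2 loci. On chromosome 8, TRY-GTA5-1 and TRA-AGC8-2 are 846 bp apart between window starts, with TRY-GTA5-2 in between. TRA-AGC8-2 had 52, 58 and 82 control counts and 88, 159 and 80 La knockdown counts, the largest fitted rise among the members with at least 20 counts on average (log2 fold change 0.99, SE 0.33, edgeR adjusted p = 0.114). TRY-GTA5-2, whose window overlaps that of TRA-AGC8-2 and may share its reads, had 74, 105 and 142 against 113, 199 and 147 (0.74, SE 0.31, edgeR adjusted p = 0.178). After scaling, every La knockdown library was above every control library in both windows, and neither passed the edgeR test. DESeq2 called TRA-AGC8-2 higher (adjusted p = 0.0448). The count of TRY-GTA5-1 over that of TRA-AGC8-2 was 36.2, 22.2 and 19.0 in controls and 5.49, 2.25 and 9 after La knockdown.

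At the second of these loci, within AGBL5 on chromosome 2, TRY-GTA2-1 and TRA-AGC8-1 are 432 bp apart. TRA-AGC8-1 had 91, 108 and 141 control counts and 117, 189 and 122 La knockdown counts (log2 fold change 0.56, SE 0.28, edgeR adjusted p = 0.241). TRY-GTA2-1 had 2479, 2573 and 3236 against 1201, 1791 and 2347 (-0.40, SE 0.26, edgeR adjusted p = 0.319). The count of TRY-GTA2-1 over that of TRA-AGC8-1 was 27.2, 23.8 and 22.9 in controls and 10.3, 9.48 and 19.2 after La knockdown. This ratio, and that of TRY-GTA5-1 to TRA-AGC8-2 on chromosome 8, was lower in every La knockdown library than in any control library. TRY-GTA5-2, the other tyrosine gene on chromosome 8, had a fitted rise (0.74), and its ratio to TRA-AGC8-2 is not given here. The loci were chosen after their values were seen. The median of the 2 TRA-AGC8 copies stayed between 0.53 and 1.09 under each scaling, in DESeq2 and in each fit that left out a library.

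Neighbouring arginine genes on chromosome 17 also differed in their ratio of counts between the arms, a pair chosen after its values were seen. TRR-CCT1-1 and TRR-CCT2-1 lie 498 bp apart within KCTD2, on opposite strands. TRR-CCT1-1 had 68, 88 and 62 control counts and 36, 51 and 45 La knockdown counts, at -0.50 (SE 0.31, edgeR adjusted p = 0.301). TRR-CCT2-1 had 75.4, 53.9 and 99.6 times its counts in controls and 29.2, 23.6 and 38.4 times after La knockdown. The third gene of the anticodon, TRR-CCT4-1 on chromosome 7, was at -0.35 with overlapping arms.

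On chromosome 11, 9 dispersed windows lay between 59550452 and 59566602, 8 of them at lysine, valine, leucine, arginine and phenylalanine genes and 1 (tRNA_52701) without a read. All 8 tested windows there had a fitted log2 fold change below 0, from -1.74 in TRK-TTT3-4 to -0.53 in TRV-TAC2-1, with a median of -0.91. TRK-TTT3-4 alone passed the edgeR test, DESeq2 called 2 of the windows, and the arms did not overlap in 6 of the 8, beside the 4.79%, 7.15% and 17.9% of all windows given above for lower values. The median stayed between -1.22 and -0.59 under each scaling and in each fit that left out a library. The locus was singled out after its values were seen. TRV-TAC1-1, a valine gene there, had 482, 287 and 319 control counts and 106, 150 and 225 La knockdown counts (-0.94, edgeR adjusted p = 0.112).

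Position and gene structure gave small differences among the 117 windows at RefSeq tRNA genes. Windows with another tRNA window within 10 kb had a median of -0.43 (5 of 59 tested lower) and those without one of -0.46 (1 of 56 lower). The 8 tested windows at genes long enough to hold an intron had a median of -0.45 and the 107 others of -0.43, with 1 and 5 lower. Outside protein-coding genes the median was -0.49 (87 windows, 5 lower), inside one on its strand -0.31 (21 windows, 0 lower in edgeR, 2 at an unadjusted p under 0.05 and 1 in DESeq2) and inside one on the opposite strand -0.41 (7 windows, 1 lower). Beside these counts, 4.79% of all windows tested were lower in edgeR, 14.2% at an unadjusted p under 0.05 and 7.15% in DESeq2. No test was made between these groups.

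The initiator methionine genes, which supply the first amino acid of a protein, were near the median of the members, and the selenocysteine gene lay above it. TRX-CAT1-1 had 218, 221 and 182 control counts and 100, 177 and 156 La knockdown counts (-0.30, edgeR adjusted p = 0.444). TRX-CAT1-8 had 92, 89 and 98 against 54, 39 and 85 (-0.40, edgeR adjusted p = 0.434). TRU-TCA1-1, which reads UGA as selenocysteine, had 283, 228 and 290 against 203, 236 and 243 (0.02, edgeR adjusted p = 0.963). The arms overlapped after scaling in all 3.

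Several of the windows with the most reads lay near 0. TRL-CAA4-1, a leucine gene on chromosome 1, had 12850, 10349 and 17138 control counts and 11616, 8927 and 14434 La knockdown counts (log2 fold change 0.06, SE 0.26). TRE-TTC2-1, a glutamate gene on chromosome 13, had 7593, 10334 and 9501 against 7636, 7720 and 7508 (-0.02, SE 0.23). TRG-GCC1-5, a glycine gene on chromosome 21, had 5836, 5581 and 7860 against 4781, 5397 and 5858 (-0.02, SE 0.21). In these genes the arms overlapped, and changes within about the SE could not be told from 0.

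The window with the most reads of all was mitochondrial-like. tRNA_52032 on chromosome 5 (94569286 to 94569685), in which RefSeq places the pseudogenes MTND6P3 and MTCYBP35, had 17952, 21639 and 11306 control counts and 7012, 10202 and 13372 La knockdown counts, and tRNA_53194, 31 bp away, had identical counts. Its log2 fold change was -0.53 (SE 0.31, edgeR adjusted p = 0.282) with overlapping arms. Reads of mitochondrial transcripts and of such nuclear copies cannot be told apart in these counts.

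The 24 tested of the 36 mitochondrial-like windows had a median of 0.23 on the log2 scale, against -0.43 at RefSeq tRNA genes. Of them 10 had a value below 0, and none passed in either direction in edgeR or DESeq2, nor at an unadjusted p under 0.05 in edgeR. La knockdown library 2 stood above the others in several. The window tRNA_52691, which holds MTRNR2L8, had 723, 653 and 640 control counts and 495, 1707 and 643 La knockdown counts. Without La knockdown library 2 the median of the 24 was -0.07, and under upper quartile scaling it was 0.55.

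In 6 dispersed windows a window of another class, in each case rRNA, overlapped the member. All 6 had a fitted value above 0, with a median of 0.55, which was 0.035 without La knockdown library 2. None passed the test in edgeR or DESeq2, nor an unadjusted p under 0.05 in edgeR. The largest was in tRNA_51830 on chromosome 19 (35575698 to 35576097), which overlaps rRNA_51829 and rRNA_52960 and had 992, 1219 and 1276 control counts and 1016, 2994 and 916 La knockdown counts. Its fitted value, 0.69 (SE 0.39, edgeR adjusted p = 0.272), was 0.03 without La knockdown library 2, the library with 2994 counts. Whether reads were counted for both of the overlapping windows was not tested.

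Start-site windows of genes that make or handle tRNA held few reads. Of 20 genes of RNA polymerase III transcription, 18 had windows, 36 in all, with at most 5 counts in a library, and none was tested. Of 20 genes of tRNA processing and export, 19 had windows, and 1 was tested, that of RPPH1, the RNA of RNase P, which cuts the 5′ leader (log2 fold change 0.44, edgeR adjusted p = 0.247). The 7 genes of the La family had 16 windows and the 5 genes of decay of uridylated RNA had 10, with at most 6 counts in a library and none tested. These windows hold small RNA at promoters and do not measure the genes' mRNA.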

How the data were processed

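Small RNA of 6 HEK293T libraries (3 control, 3 La knockdown) was analysed from raw read counts per 400 bp window as deposited by the authors, with no count column outside the study. The submitters' processing notes name Trim Galore, Bowtie2, bedtools, edgeR and the builds GRCh38 and hg38, without versions or settings, and use of strand is not given in the sources used here. The authors' deposited comparison gave per window a log2 fold change, a mean log2 CPM, p-values and an F value, which is a score. All windows passing filterByExpr (1064) were fitted here with edgeR 4.0.16 (TMM, glmQLFit, glmQLFTest) in all 6 libraries, with Benjamini-Hochberg adjustment over these windows and a threshold of 0.05. Single values per library were compared with exact permutation tests. Gene names came from RefSeq GRCh38.p14 for tRNA genes starting within 50 bp and from GENCODE 29 for protein-coding genes. The fit was tested on simulated data.

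SSB was named, though its windows had too few counts for a fit. The 22 named members were up to 12 of the largest falls and rises among members called, the 8 with the most counts, the 3 largest fitted rises with a mean of at least 20 counts, and the initiator methionine and selenocysteine genes, tRNA_51308 and TRR-CCT2-1. Others were chosen after values were seen, or for their sequence. The members and lists were chosen with earlier results of these data known. Alternatives were other scalings (RLE, upper quartile, library size), DESeq2 1.42.0, other filters, collapsed identical rows, robust dispersion, a replicate block and leaving out each library.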

Additional observations from a re-analysis of the deposited data

How the results depend on the processing

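The count of 8 dispersed windows lower after La knockdown became 13 in DESeq2, 16 with no filter on low counts, and 14 with a replicate block, which called all 8 again. It ranged from 0 (without La knockdown library 1) to 15 (without La knockdown library 3) when 1 library was left out, and from 6 to 12 over the other scalings. With the block, same-numbered libraries were not shown to pair (correlations of their deviations 0.139, 0.23 and -0.459). The count of 0 windows higher became 1 under upper quartile factors, in DESeq2 and with no filter. The median log2 fold change of -0.32 became -0.0075 under upper quartile factors and -0.559 with no filter, and ranged from -0.567 to -0.236 over the left-out libraries. The difference in count share stayed between -1.72 and -0.993 percentage points.

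Of 242 values for the 22 named members, 186 kept direction and side of the threshold, 23 lost and 2 gained the call, and 31 changed sign. The changes of sign were all in 8 windows that did not pass the test. Their fitted values were near 0, apart from TRX-CAT1-1 at -0.30. With library size alone, TRL-CAA4-1 was at -0.031, TRD-GTC2-8 at -0.066, TRD-GTC2-10 at -0.052 and TRU-TCA1-1 at -0.063. With RLE factors, upper quartile factors and DESeq2, TRD-GTC2-9 was at 0.064, 0.32 and 0.064, TRE-TTC2-1 at 0.037, 0.285 and 0.037, and TRG-GCC1-5 at 0.045, 0.297 and 0.045. TRX-CAT1-1 was at 0.0089 with upper quartile factors. Over the left-out libraries TRL-CAA4-1 ranged from -0.157 to 0.253, TRD-GTC2-8 from -0.127 to 0.10, TRD-GTC2-9 from -0.156 to 0.069, TRD-GTC2-10 from -0.114 to 0.11, TRE-TTC2-1 from -0.168 to 0.13, TRG-GCC1-5 from -0.142 to 0.12 and TRU-TCA1-1 from -0.092 to 0.051. Why the counts of calls moved was not tested. The share of all windows called in each alternative, other than DESeq2, is not given here. Of the 201 windows, 42 had too few counts for the test, 16 of them without a read.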
